A study of Homo sapiens with 5 samples.

Results

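The genes described here are lncRNAs that carry small nucleolar RNAs (snoRNAs), mostly in their introns, together with a set of abundant nuclear and cytoplasmic lncRNAs, read in SW480 cells with and without knockdown of AKAP12. The rule that picks them uses names: every gene called SNHG and a number, which gave 21 genes, and 10 further lncRNAs (GAS5, ZFAS1, DANCR, EPB41L4A-AS1, MALAT1, NEAT1, OIP5-AS1, MEG3, H19 and TUG1). That made 31 genes of the 26485 in the count tables. NORAD and CYTOR were on the list of names but are not among the symbols used in the tables. In the coordinates of the tables, 25 of the 31 held at least 1 snoRNA gene on their own strand, 69 snoRNA genes in all, of which 4 lay wholly or in part in host exons (SCARNA13 in SNHG10, SNORA17 and SNORA43 in SNHG7, SCARNA17 in SNHG22), and 6 (MALAT1, NEAT1, OIP5-AS1, MEG3, H19 and TUG1) held none.

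A snoRNA host gene is transcribed and spliced like any other gene, and the snoRNAs are trimmed out of the excised introns, after which they guide 2′-O-methylation or pseudouridylation of ribosomal RNA. Many hosts begin transcription at a C followed by pyrimidines, the terminal oligopyrimidine or TOP element shared with ribosomal protein genes, which ties translation of the spliced transcript to growth signals. Since the spliced host lncRNAs carry short reading frames, several, GAS5 among them, are known targets of nonsense-mediated decay, the pathway that removes transcripts with early stop codons.

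SW480 is an established line from a human colorectal adenocarcinoma, and AKAP12 encodes a scaffold protein for protein kinase A and other signalling enzymes. All cells carried dCas9-KRAB, a catalytically dead Cas9 fused to a repressor domain, and received either control guides (2 control libraries) or guides against AKAP12 (3 knockdown libraries). The treatment text describes this CRISPR interference, whereas the titles call the groups shControl and shAKAP12, and the description used here follows the treatment text. Total RNA was taken 48 hours after seeding, and libraries were made with the QuantSeq FWD kit, in which an oligo(dT) primer anneals to poly(A) and reads come from 3′ ends. The labels do not say whether the libraries of a group came from separate cultures, so each p-value rests on the spread between libraries alone, which may be technical.

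AKAP12 itself stood at 2870 and 1550 CPM (read counts scaled to the size of each library) in the control libraries and at 1159, 1063 and 1008 CPM in the knockdown libraries, a log2 fold change of -1.04 with an SE of 0.31 that did not pass the threshold (edgeR adjusted p = 0.0513). The value was -0.52 without control 1 and -1.42 without control 2. The libraries held between 4935096 and 9311026 counted reads. Control library 1 stood apart: it correlated at 0.90 with control 2 and at 0.79 to 0.81 with the knockdown libraries, which correlated at 0.98 with each other. Control 2 correlated at 0.92 to 0.93 with the knockdown libraries, above its value with control 1. Genes with under 300 bases of exon took 8.78% of the reads in control 1, against 1.94% in control 2 and 0.609% to 0.925% in the knockdown libraries. TERT took 7.43% and 3.54% of the reads in the control libraries and at most 0.249% in the knockdown libraries. Calls and fold changes of the members are therefore also given without each control library, where the remaining control is assumed to vary like the knockdown libraries, except for the genes too low to test. The epithelial markers summed to between 1031 and 1541 CPM in the controls and between 1355 and 1610 CPM in the knockdown, with KRT20 and LGR5 below 1 CPM in every library. Blood markers summed to between 55.6 and 102 CPM in the controls and to between 82.0 and 101 CPM in the knockdown, stromal markers to between 334 and 439 and to between 434 and 498 CPM, and endothelial markers to between 47.3 and 70.3 and to between 45.0 and 55.6 CPM. The part of these differences in the results below was not tested, and in bulk RNA a change in cell number cannot be told apart from a change in RNA per cell.

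The start sites of 7 hosts are shown because TOP elements are what this class is known for. They run from 11 pyrimidines in SNHG12 to a lone C in SNHG8, and the longer runs of SNHG18 (21 bases) and SNHG4 (13 bases), both with few reads here, are not printed. The windows come from RefSeq (GRCh38.p14), whose promoter table held 25 of the 31 genes, and give 20 bases before and 20 bases from the annotated start. Capitals mark a C on the first transcribed base and the C or T bases that run on from it. The windows are SNHG12 (chr1:28581854-28581893, minus strand), SNHG19 (chr16:2155339-2155378, minus), SNHG5 (chr6:85678714-85678753, minus), ZFAS1 (chr20:49278622-49278661, plus), SNHG7 (chr9:136728165-136728204, minus), SNHG1 (chr11:62855866-62855905, minus) and SNHG8 (chr4:118278742-118278781, plus).
SNHG12: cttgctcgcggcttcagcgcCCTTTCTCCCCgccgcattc
SNHG19: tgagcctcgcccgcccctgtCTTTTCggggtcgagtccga
SNHG5: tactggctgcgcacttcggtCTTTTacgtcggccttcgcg
ZFAS1: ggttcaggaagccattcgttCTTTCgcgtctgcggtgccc
SNHG7: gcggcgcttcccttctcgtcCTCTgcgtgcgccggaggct
SNHG1: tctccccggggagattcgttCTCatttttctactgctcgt
SNHG8: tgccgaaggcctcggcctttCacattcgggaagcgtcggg
A tract was counted, on the transcribed strand only, where the first base was C and at least 4 C or T bases followed it. Of the 25 genes, 6 had one (SNHG12, SNHG19, SNHG18, SNHG4, SNHG5 and ZFAS1), against 4.04% of 27305 RefSeq promoters and 62.9% of 70 ribosomal protein promoters. SNHG7, SNHG1 and SNHG8 opened on a C with runs of 4, 3 and 1 bases and so did not meet the rule. For ZFAS1 the RefSeq start lies 464 bases from the start in the count tables, and 15 of the 25 starts lay within 5 bases. The distance was 349 bases for SNHG4 and 1058 bases for GAS5, which had no tract at its RefSeq start. Of the 6 genes with a tract, SNHG18 had too few reads to be tested. Among the others only ZFAS1 rose in the comparison below and none fell, where 11.2% of all tested genes rose and 11.4% fell. The match is a description of letters at an annotated start, not a measured start site.

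Among the tested members, those that passed the test were snoRNA hosts. Of the 31 genes, 27 had enough reads to be tested, 8 rose in the knockdown, 2 fell and 17 did not pass (edgeR quasi-likelihood test, adjusted p under 0.05 over all genes). The background was 22.6% of 14536 tested genes called, 11.2% higher and 11.4% lower, so the members' shares were 29.6% higher and 7.41% lower. All 10 that passed were snoRNA hosts, 10 of the 22 tested. Of the 5 tested lncRNAs without a snoRNA gene 0 passed in edgeR, where 22.6% of all tested genes did. Among these 5, 0 had an unadjusted p under 0.05 and 0 passed in DESeq2 or limma-voom. Over all genes the counts were 5890 of 14536 at that unadjusted p, 4459 in DESeq2 and 3073 in limma-voom. These 5 depended on the controls as well: 0 were higher and 1 lower (OIP5-AS1) without control 1, and 2 were higher (OIP5-AS1 and TUG1) and 2 lower (MALAT1 and MEG3) without control 2. Hosts counted 12 higher and 5 lower, and 15 higher and 5 lower, and no test compared hosts with the other lncRNAs. The median log2 fold change was 0.69 over the tested hosts, 0.02 over the other 5 lncRNAs and 0.04 over all tested genes. Over the 12 tested hosts whose exons overlap no other gene the median was 0.07, with 3 higher (25%) and 2 lower (16.7%). The part of shared reads in the host values was not tested. LINC00657, the older symbol of NORAD, is not among the 31 genes and was looked up later. It rose by 1.03 on the log2 scale (edgeR adjusted p = 0.0209), so the pattern covers the listed symbols only. Among the tested members, SNHG21 rose most by fold and SNHG25 fell most. Without control 1 the members counted 12 higher and 6 lower, against 20.3% and 17% of all genes (37.3% in either direction). Without control 2 they counted 17 higher and 7 lower, against 30.5% and 27.6% of all genes (58.1% in either direction). The 10 that passed in the full comparison also passed in both of these fits. With any knockdown library left out no gene of the 14215 to 14324 tested passed in edgeR, although 10 members and 3774 to 4109 genes then had an unadjusted p under 0.05.

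**Figure D1:**
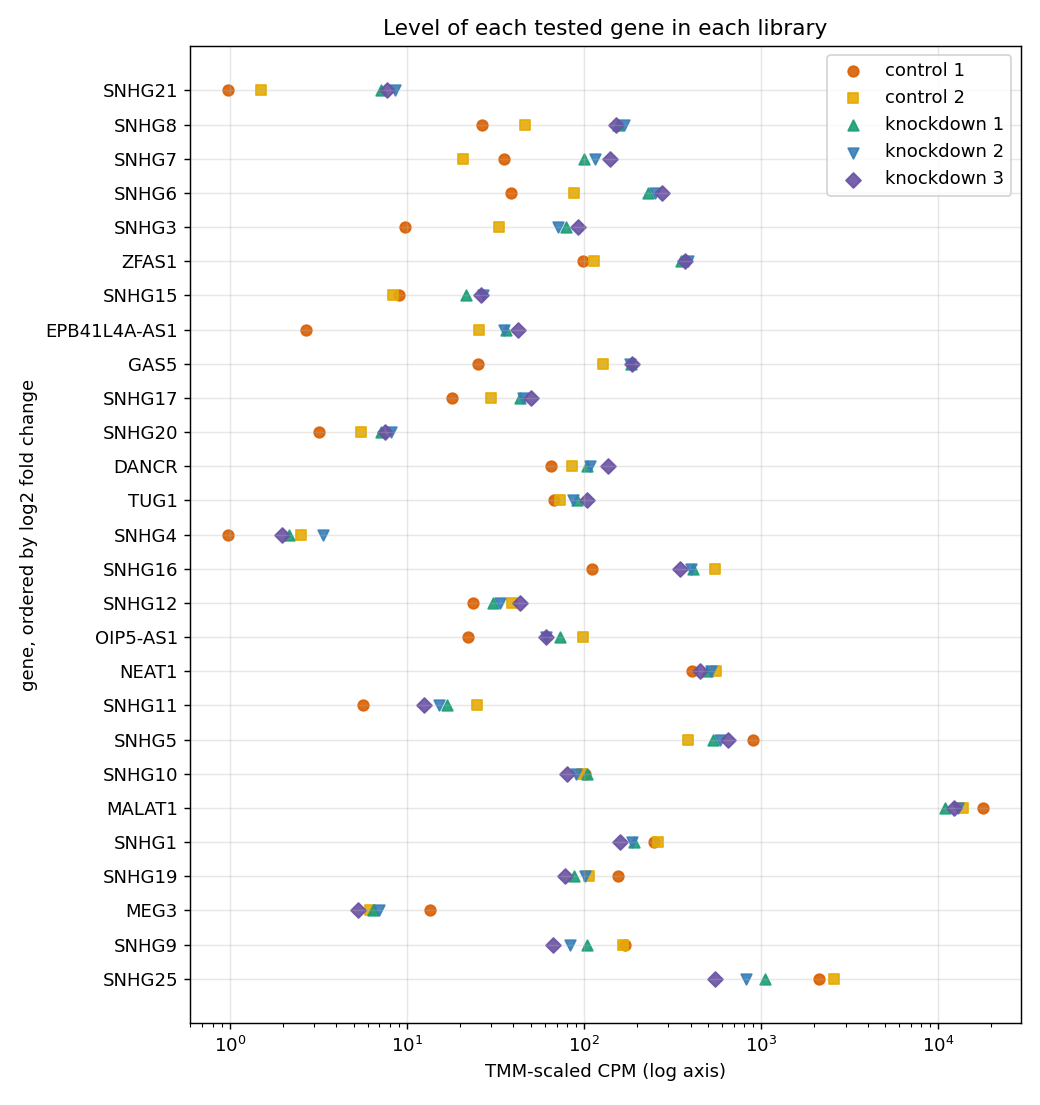
Level of each of the 27 tested genes in the 5 libraries, in CPM on a log axis, ordered by log2 fold change, with 1 point per library. The 3 knockdown libraries lie close together for most genes, whereas the control libraries differ widely for GAS5, EPB41L4A-AS1, SNHG16 and OIP5-AS1.

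Levels spanned several orders of magnitude. Per kb of annotated exon, on the mean of the 5 libraries, SNHG25 read 12853 CPM per kb over an exon length of only 111 bases, MALAT1 1548, SNHG5 1210, SNHG9 507 and SNHG6 375 CPM per kb. At the other end stood SNHG4 at 1.42 and MEG3 at 0.726 CPM per kb. Because the kit reads 3′ ends, this scale favours short genes.

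ZFAS1 is a host of C/D box snoRNAs on chromosome 20 (49278178 to 49289258, plus strand) that lies head to head with ZNFX1. It read 98.7 and 114 CPM in the control libraries and 353, 389 and 374 CPM in the knockdown libraries. The groups did not overlap, and ZFAS1 rose 3.50-fold, a log2 fold change of 1.81 with an SE of 0.20 (edgeR adjusted p = 0.0131). It stood at 1.71 without control 1 and 1.91 without control 2. ZFAS1 shares 42 bases of exon with ZNFX1, which fell by 0.93 on the log2 scale (edgeR adjusted p = 0.0221).

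SNHG8, a short host on chromosome 4 (118278762 to 118279823, plus strand) that carries SNORA24, read 26.5 and 46.2 CPM in the controls. The knockdown libraries read 156, 169 and 152 CPM, all well above both controls. SNHG8 rose 4.34-fold (log2 fold change 2.12, SE 0.29, edgeR adjusted p = 0.0140), with 1.78 without control 1 and 2.58 without control 2, and no other gene's exon overlaps it.

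SNHG7, which carries SNORA17 and SNORA43 on chromosome 9 (136724594 to 136728184, minus strand), read 35.3 and 20.6 CPM in the controls and 99.6, 115 and 140 CPM in the knockdown. Here control 1 was the higher control, and the groups still did not overlap. SNHG7 rose 4.26-fold (log2 fold change 2.09, SE 0.31, edgeR adjusted p = 0.0151), 2.51 without control 1 and 1.74 without control 2. Its exons overlap those of FAM69B by 125 bases, and FAM69B rose too (log2 fold change 1.10, edgeR adjusted p = 0.0226).

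SNHG6 carries SNORD87 on chromosome 8 (66921930 to 66925542, minus strand). SNHG6 stood at 38.7 and 87.6 CPM in the controls and 231, 251 and 277 CPM in the knockdown, with no overlap between groups. SNHG6 rose 3.98-fold (log2 fold change 1.99, SE 0.37, edgeR adjusted p = 0.0203), 1.53 without control 1 and 2.7 without control 2. It shares 119 bases of exon with MCMDC2, whose log2 fold change of 1.05 did not pass (edgeR adjusted p = 0.057).

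SNHG3 carries SNORA73A and SNORA73B, the snoRNAs also known as U17, and overlaps RCC1 by 251 bases of exon. It read 9.80 and 33.1 CPM in the controls and 78.9, 71.5 and 93.1 CPM in the knockdown. The knockdown libraries were all above both controls, but the control libraries differed from each other by more than the knockdown libraries did. SNHG3 rose 3.70-fold (log2 fold change 1.89, SE 0.48, edgeR adjusted p = 0.0361), 1.29 without control 1 and 3.04 without control 2. RCC1 had a log2 fold change of 0.46 that did not pass (edgeR adjusted p = 0.135).

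SNHG15, a host of SNORA9 on chromosome 7, gave 9.06 and 8.37 CPM in the controls and 21.5, 26.9 and 26.3 CPM in the knockdown. Its control libraries were close together, and it rose 2.86-fold (log2 fold change 1.52, SE 0.25, edgeR adjusted p = 0.0170), 1.57 without control 1 and 1.45 without control 2. No other gene's exon overlaps SNHG15.

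SNHG17, which holds 4 snoRNA genes on chromosome 20, was at 17.9 and 29.7 CPM in the controls and at 43.5, 45.0 and 50.3 CPM in the knockdown. It rose 1.93-fold (log2 fold change 0.95, SE 0.27, edgeR adjusted p = 0.0479), 0.64 without control 1 and 1.36 without control 2. The groups were apart, yet this was the largest adjusted p of the 8.

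SNHG21 was the lowest of the genes that rose. Its reads numbered 4 and 13 in the controls, or 0.980 and 1.49 CPM, and it stood at 7.17, 8.57 and 7.75 CPM in the knockdown. SNHG21 rose 6.0-fold (log2 fold change 2.59, SE 0.40, edgeR adjusted p = 0.0159), 2.38 without control 1 and 2.97 without control 2. It overlaps FSD2 on the opposite strand by 359 bases, and since the counting did not use strand the reads of the pair cannot be told apart. FSD2 rose as well (log2 fold change 1.23, edgeR adjusted p = 0.0419).

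Both hosts that fell are short. SNHG25 has 111 bases of exon on chromosome 17 (64145970 to 64146309, plus strand) and carries SNORD104. It read 2113 and 2588 CPM in the controls and 1055, 827 and 551 CPM in the knockdown. SNHG25 fell 2.90-fold (log2 fold change -1.54, SE 0.32, edgeR adjusted p = 0.0237), -1.67 without control 1 and -1.38 without control 2. The knockdown libraries spread more for it than for any other tested member, with a coefficient of variation of 31.1% against a median of 10.0%.

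SNHG9, with 233 bases of exon on chromosome 16, read 170 and 167 CPM in the controls and 104, 83.4 and 66.5 CPM in the knockdown. It fell 1.98-fold (log2 fold change -0.99, SE 0.23, edgeR adjusted p = 0.0309), -0.97 without control 1 and -1.0 without control 2. The groups did not overlap for either short host. Genes under 300 bases also took more of the reads in both controls, and the part of this in the 2 falls was not tested.

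Scaling mattered for the weakest calls. With libraries scaled by their totals alone, SNHG3 (adjusted p = 0.0515), SNHG17 (adjusted p = 0.0584) and SNHG9 (adjusted p = 0.0689) no longer passed in edgeR. That scaling moved the median log2 fold change of all genes from 0.04 to 0.23 and the split over all genes from 1624 higher and 1658 lower to 1668 higher (11.5%) and 982 lower (6.76%), 18.2% in all, beside 6 members higher and 1 lower.

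**Figure D2:**
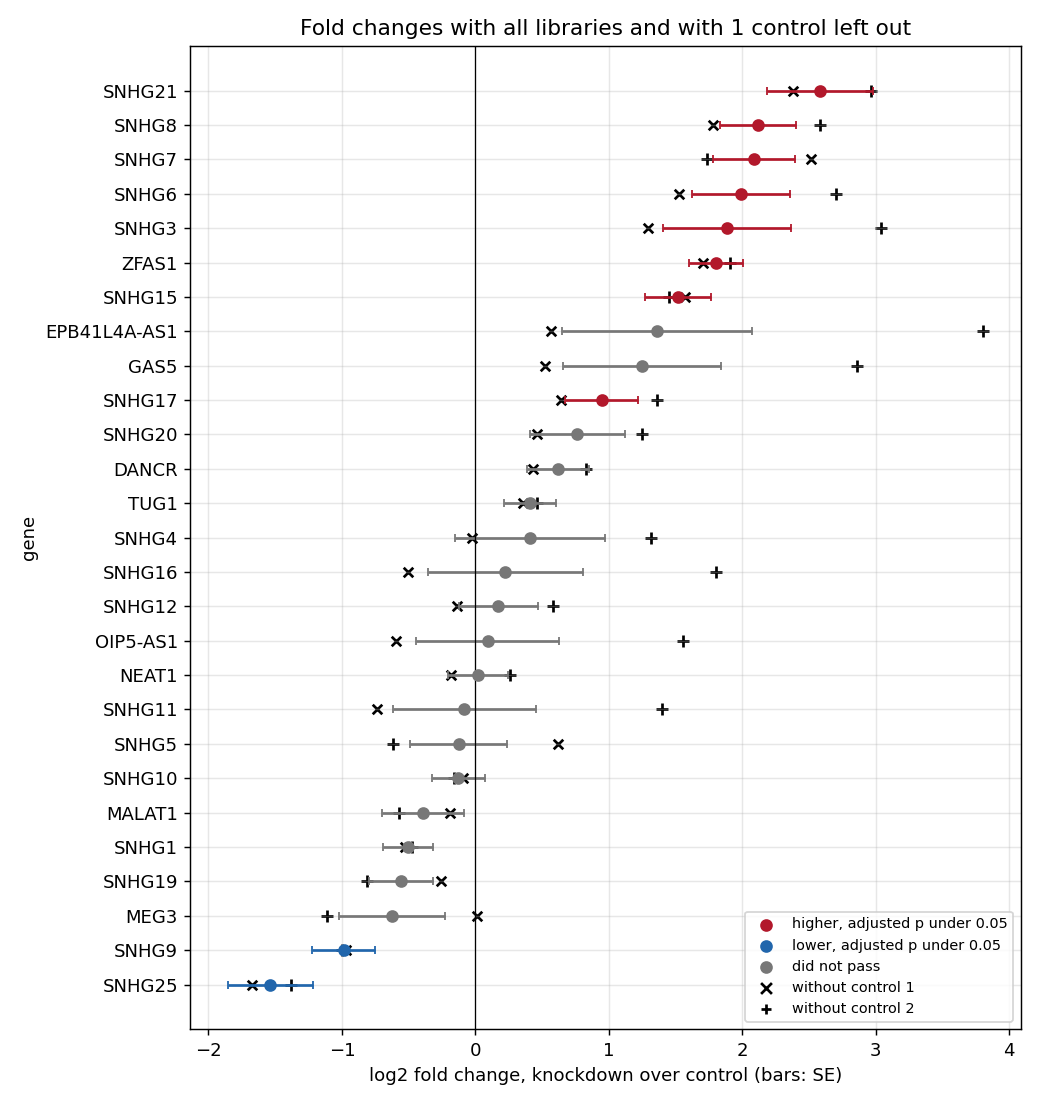
Log2 fold change of each tested gene, knockdown over control, with bars of 1 SE, coloured by the edgeR call, and crosses and plus signs for the values with control 1 or control 2 left out. The genes that passed keep their side of 0 without either control, whereas SNHG16, OIP5-AS1, SNHG11 and SNHG5 lie on opposite sides.

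For GAS5 and EPB41L4A-AS1 the control libraries were far apart. GAS5, a host of 10 snoRNA genes known as a growth-arrest transcript, read 25.2 and 129 CPM in the controls and 184, 182 and 187 CPM in the knockdown. The knockdown libraries were close together and all lay above both controls, but the log2 fold change moved with the control used: 1.25 with an SE of 0.59 in the full comparison (edgeR adjusted p = 0.161), 0.52 without control 1 and 2.86 without control 2, and it passed in both of those fits. GAS5 shares 41 bases of exon with GAS5-AS1 on the opposite strand, and the counting did not use strand. GAS5-AS1 read 12.7 and 65.0 CPM in the controls and 61.0, 61.5 and 54.0 CPM in the knockdown. How many reads the pair shares was not tested. EPB41L4A-AS1, a host of SNORA13, gave 2.7 and 25.6 CPM in the controls and 36.3, 35.2 and 42.3 CPM in the knockdown. Its log2 fold change of 1.36 did not pass (SE 0.71, edgeR adjusted p = 0.197), and was 0.57 without control 1 and 3.80 without control 2, passing in both.

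Control 1 was the lower control for 19 of the 27 tested members, and for 6 of the 8 that rose. SNHG16 was at 111 and 550 CPM in the controls and between 348 and 413 CPM in the knockdown, so that the knockdown libraries lay between the 2 controls. OIP5-AS1, a cytoplasmic lncRNA that binds the RNA-binding protein HuR, also had its knockdown libraries between the controls, at 22.0 and 98.4 CPM in the controls and between 60.8 and 72.9 CPM in the knockdown. For SNHG16 the log2 fold change was -0.51 without control 1 and 1.80 without control 2. For OIP5-AS1 it was -0.60 and 1.55, and both genes passed in both fits with opposite signs.

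SNHG11 also lay between its controls, at 5.63 and 25.0 CPM against 12.5 to 16.9 CPM in the knockdown. SNHG5, the host of SNORD50A and SNORD50B, had the opposite order, with 906 CPM in control 1, 386 CPM in control 2 and 538 to 648 CPM in the knockdown. The log2 fold change was -0.74 and 1.40 for SNHG11 and 0.62 and -0.62 for SNHG5 without control 1 and control 2, again past the threshold each time. None of these 4 genes has a direction that holds for both controls.

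DANCR, the host of SNORA26, read 65.2 and 86.1 CPM in the controls and 104, 108 and 137 CPM in the knockdown, and did not pass (log2 fold change 0.62, SE 0.23, edgeR adjusted p = 0.0930). SNHG20 gave 3.18 and 5.51 CPM against 7.17 to 8.17 CPM (0.76, SE 0.35, edgeR adjusted p = 0.153), and shares 530 bases of exon with SEC14L1, which rose (1.66, edgeR adjusted p = 0.0175). SNHG1, the host of 8 snoRNA genes, read 250 and 260 CPM in the controls and 192, 187 and 161 CPM in the knockdown (-0.50, SE 0.19, edgeR adjusted p = 0.0945). In all 3 the groups were apart without a call in the full comparison. Without control 1 and control 2 DANCR gave 0.43 and 0.83 (edgeR adjusted p = 0.0407 and 0.000482) and SNHG1 gave -0.53 and -0.48 (0.00521 and 0.00873), so that both passed each time. SNHG20 gave 0.47 and 1.25 (edgeR adjusted p = 0.288 and 0.0199).

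SNHG19 read 156 and 107 CPM against 78.1 to 101 CPM (log2 fold change -0.56, SE 0.24, edgeR adjusted p = 0.127), with -0.26 without control 1 and -0.81 without control 2, where it passed. SNHG12, SNHG10 and SNHG4 overlapped between groups and had log2 fold changes of 0.17, -0.13 and 0.41. These were -0.14, -0.10 and -0.03 without control 1 and 0.58, -0.16 and 1.32 without control 2, where SNHG12 alone of the 3 passed. SNHG4 was near the detection limit, at 0.980 and 2.52 CPM in the controls and 1.97 to 3.35 CPM in the knockdown. It overlaps the exons of MATR3 by 601 bases. SNHG10 holds all 275 bases of SCARNA13 in its exons. Over the libraries SCARNA13 had 2911 reads and SNHG10 had 3611, and shared reads count for both. Counting every tested member, the groups did not overlap for 18 of 27, 13 higher and 5 lower, against 60.1% of all tested genes, 31.6% higher and 28.5% lower.

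Among the lncRNAs without snoRNA genes, MALAT1 was by far the most abundant by reads. MALAT1 is retained in nuclear speckles, and NEAT1 is the scaffold of paraspeckles. MALAT1 lacks a poly(A) tail and NEAT1 exists in a long form without one. The longest run of A in each annotated transcript is therefore shown, as a stretch where an oligo(dT) primer can anneal. Each run is in capitals with 20 bases on either side, from the GENCODE 29 transcripts on GRCh38, MALAT1 at chr11:65506078-65506130 and NEAT1 at chr11:65440823-65440884, both on the plus strand.
MALAT1: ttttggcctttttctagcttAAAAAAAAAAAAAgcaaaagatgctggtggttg
NEAT1: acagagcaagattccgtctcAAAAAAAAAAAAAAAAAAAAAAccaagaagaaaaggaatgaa
The run in MALAT1 is 13 bases long, begins at base 8337 of the 8708 in the annotated transcript and stops 359 bases before its end. The annotated end need not be the end of the mature RNA, which was not measured. The run in NEAT1 is 22 bases long and begins at base 18046 of 22743. The gene counts do not tell where in the transcript the reads fell, so neither run is tied to them.

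MALAT1 read 17861 and 13743 CPM in the controls and 10879, 12965 and 12296 CPM in the knockdown, or 1.14% to 1.48% of all counted reads in every library. All knockdown libraries were below both controls, but the log2 fold change of -0.39 with an SE of 0.31 did not pass (edgeR adjusted p = 0.376), and was -0.19 without control 1 and -0.57 without control 2, where it passed. NEAT1 read 407 and 557 CPM in the controls and 493, 522 and 452 CPM in the knockdown, all 3 within the range of the controls. Its log2 fold change was 0.02 with an SE of 0.23 (edgeR adjusted p = 0.955), -0.19 without control 1 and 0.26 without control 2.

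TUG1, a nuclear and cytoplasmic lncRNA linked to Polycomb, was at 67.9 and 73.3 CPM in the controls and at 91.3, 86.7 and 104 CPM in the knockdown, apart but not past the threshold (log2 fold change 0.41, SE 0.19, edgeR adjusted p = 0.157). TUG1 gave 0.36 without control 1 and 0.46 without control 2, where it passed. MEG3, the maternally expressed lncRNA of the DLK1 locus, read 13.5 and 6.19 CPM against 6.45, 6.96 and 5.29 CPM (-0.62, SE 0.40, edgeR adjusted p = 0.281). Only control 1 was high for MEG3, and the value was 0.01 without it and -1.11 without control 2, where MEG3 passed.

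Of the 31 genes, 4 were too low to test. SNHG24, a host in the imprinted cluster on chromosome 14, and H19, the imprinted fetal lncRNA, had 0 reads in every library. A count of 0 allows up to 3 counts, which is 0.307 to 0.735 CPM depending on the library, for counting error only. SNHG18 had 2 and 1 reads in knockdown 1 and 2 and 0 elsewhere, and SNHG22 had between 0 and 3 reads per library. No difference was detectable for these at this depth.

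The snoRNA genes inside the hosts were read next to their hosts. Mature snoRNAs have no poly(A) tail, so reads on these genes in a poly(A)-primed library are not a measure of mature snoRNA. The introns of SNHG1 hold a run of C/D box snoRNAs, and of the 5 that could be tested the 4 with the highest mean level are printed. The sequences are from GENCODE 29 on GRCh38, minus strand, SNORD26 at chr11:62855292-62855366, SNORD27 at chr11:62855012-62855083, SNORD28 at chr11:62854621-62854695 and SNORD30 at chr11:62853663-62853732. Capitals mark GATGA, the part of the C box all 4 share, and the last CTGA, the D box.
SNORD26: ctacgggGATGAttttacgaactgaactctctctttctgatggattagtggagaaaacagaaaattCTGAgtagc
SNORD27: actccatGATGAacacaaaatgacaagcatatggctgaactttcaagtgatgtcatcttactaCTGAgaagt
SNORD28: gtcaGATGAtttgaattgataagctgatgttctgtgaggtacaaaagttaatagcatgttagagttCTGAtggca
SNORD30: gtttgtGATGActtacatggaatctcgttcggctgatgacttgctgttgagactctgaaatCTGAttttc
SNORD26 read 478 and 122 CPM in the controls and 50.3, 52.4 and 40.9 CPM in the knockdown. It fell by 2.65 on the log2 scale (SE 0.51, edgeR adjusted p = 0.0217), with -1.35 without control 1 and -3.32 without control 2. SNORD30 fell by 2.66 (edgeR adjusted p = 0.0314), with -1.91 and -3.22 without control 1 and control 2. SNORD27 and SNORD28 had log2 fold changes of -1.74 and -1.89 that did not pass (edgeR adjusted p = 0.0595 and 0.0835). SNORD22, the fifth tested and not printed, had -0.94 (edgeR adjusted p = 0.403), and 0.49 without control 1 and -1.80 without control 2.

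Of the 69 snoRNA genes inside these hosts, 52 had a read and 31 could be tested. Of the 31, 0 rose and 9 fell in edgeR, which is 29% lower against 11.4% of all tested genes. At an unadjusted p under 0.05 the counts were 0 higher and 17 lower, in DESeq2 0 and 15, and in limma-voom 0 and 4, where 20.7%, 15.7% and 9.76% of all genes were lower. The median log2 fold change was -1.21, and was -0.48 without control 1 and -1.58 without control 2. Without control 1, 7 of 34 tested were lower, which is 20.6% against 17% of all genes. Without control 2, 21 of 37 were lower, which is 56.8% against 27.6% of all genes, and 1 was higher.

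SNORD50A, in SNHG5, was the snoRNA gene with the most reads. It stood at 4159 CPM in control 1, 324 CPM in control 2 and 191, 226 and 187 CPM in the knockdown. SNORD50A fell by 3.48 on the log2 scale (SE 0.87, edgeR adjusted p = 0.0349), but the value was -0.69 without control 1 and -4.37 without control 2, so that most of its size came from 1 library.

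SNORA24, an H/ACA box guide in SNHG8, was even between the controls at 11.8 and 10.7 CPM and read 6.35, 4.69 and 4.06 CPM in the knockdown. It fell by 1.14 (SE 0.32, edgeR adjusted p = 0.0439), with -1.07 and -1.22 without control 1 and control 2, while its host rose. SNORD87, in SNHG6, read 39.4 and 8.49 CPM in the controls and 3.17, 4.42 and 4.79 CPM in the knockdown, and fell by 2.51 (edgeR adjusted p = 0.0332), with -1.05 without control 1. SNORD74, in GAS5, read 26.2 and 4.93 CPM against 1.84, 2.28 and 0.738 CPM and fell by 3.21 (edgeR adjusted p = 0.0308), with -1.60 without control 1.

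The others that fell were SNORA61 and SNORA16A in SNHG12 (-3.06 and -2.71) and SCARNA17, which guides modification of spliceosomal RNA, in SNHG22 (-1.23). Without control 1 these values were -1.05, -0.78 and -0.90. Within GAS5, SNORD79 read 12.0 and 8.37 CPM against 10.1, 8.71 and 8.48 CPM, so that groups overlapped, and its log2 fold change was -0.14. Without control 1 SNORD79 gave 0.13. SNORD47 and SNORD77 of GAS5 were too low to test and had more reads in every knockdown library, 1 and 3 against 8, 8 and 26 for SNORD47, and 0 and 0 against 8, 9 and 5 for SNORD77. The snoRNA genes of GAS5 thus did not all lie lower in the knockdown.

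The ratio of snoRNA reads to host reads does not depend on how libraries are scaled. Over all hosts it was 0.37 and -2.7 on the log2 scale in the controls, whereas the knockdown libraries gave -2.96, -2.89 and -3.10. The difference of -1.82 had an exact two-sided permutation p of 0.1, the smallest that 2 against 3 libraries allow. Control 1 stood far from the other 4 libraries, and without it the difference was -0.28, against -3.35 without control 2. Control 1 is also the library in which genes under 300 bases took 8.78% of the reads, and the part of that in the ratio was not tested.

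By single host, 20 had at least 10 snoRNA reads and 10 host reads over the libraries. The ratio was lower in every knockdown library than in both controls for 16 of them, which is 80%, and higher for 0. Among the other genes that hold a snoRNA gene it was lower in 43 of 87, which is 49.4%. Unlike the 20, these were counted without genes named SCARNA. They include RCC1 and MATR3, which hold the snoRNA genes of SNHG3 and SNHG4. The genes they were drawn from also include readthrough pairs such as PPAN and PPAN-P2RY11. The median difference was -2.42 over the 20 hosts and -1.17 over the others. Without control 1, 19 of the 20 differences were negative, which is 95%, against 63 of 87 among the others, which is 72.4%, and the medians were -1.18 and -1.01. In SNHG10 and SNHG7, 2 of the 16, the snoRNA genes lie in host exons, so their reads also count for the host. Without these hosts the count was 14 of 18.

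SNHG8 had ratios of -1.15 and -2.10 in the controls and of -4.60, -5.13 and -5.18 in the knockdown. For SNHG21 the control ratios were -0.74 and -0.49, against -3.34, -3.44 and -3.42 for the knockdown libraries. These rest on few reads. From control 1 to knockdown 3, SCARNA15 of this host had 2, 9, 6, 5 and 5 reads, too few to test. SNHG21 itself had only 4 and 13 control reads, so the closeness of its control ratios carries little weight. Another gene also overlaps SCARNA15. SNHG6 gave 0.03 and -3.35 against -6.14, -5.78 and -5.82. In all 3 the host rose and the groups of ratios were apart, while for SNHG25, at -6.55 and -8.00 against -6.82, -6.95 and -6.40, they overlapped.

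**Figure D3:**
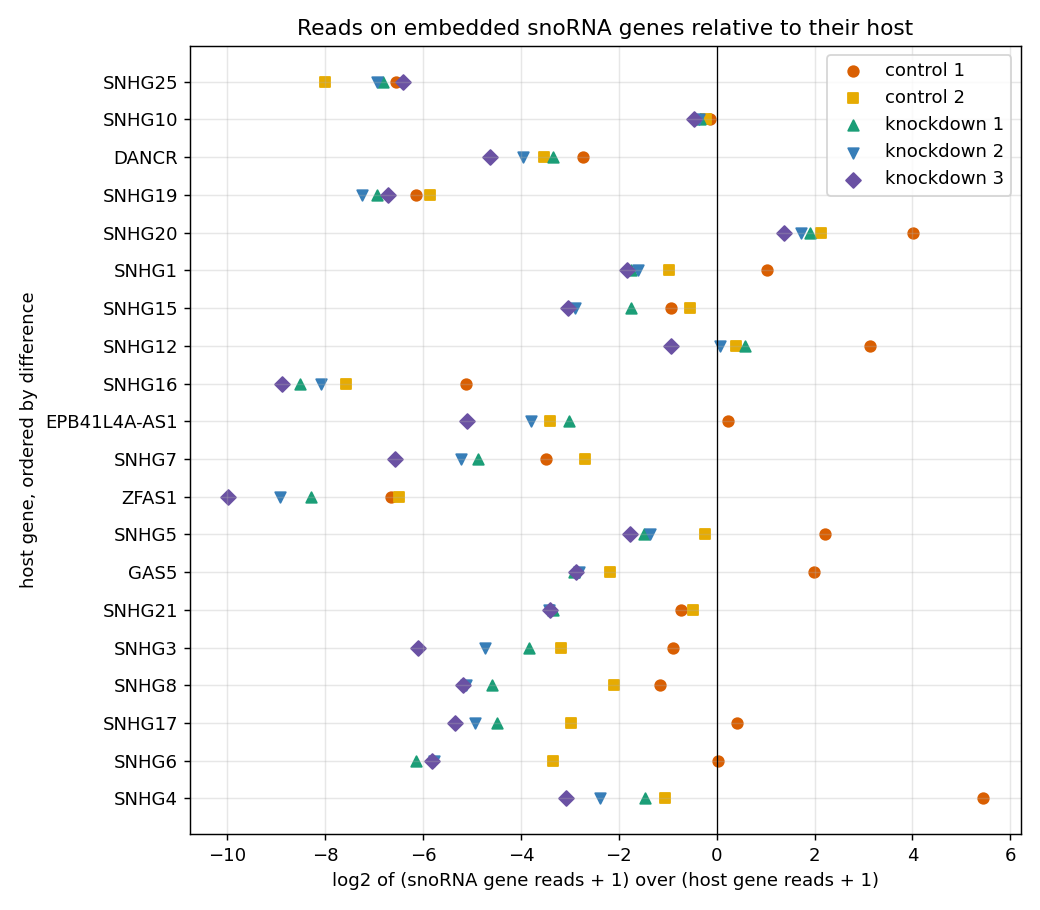
Log2 ratio of snoRNA gene reads to host reads (1 added to each) in the 5 libraries for the 20 hosts with at least 10 reads of both kinds, ordered by difference. The knockdown points lie to the left of both controls in 16 hosts, and control 1 lies far to the right in SNHG4, GAS5, SNHG5 and SNHG12.

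Genes outside the members that hold a SNORD or SNORA gene numbered 134. Of the 27 ribosomal protein genes among them 7 rose (25.9%, against 11.2% of all genes) and 0 fell in edgeR (median log2 fold change 0.82). At an unadjusted p under 0.05 the counts were 12 higher and 1 lower, in DESeq2 12 and 1, and in limma-voom 9 and 1. Over all 14536 tested genes these counts were 2884 and 3006, 2176 and 2283, and 1655 and 1418. RPL30 rose by 2.12, RPL4 by 1.56 and RPL7A by 1.57 (edgeR adjusted p of 0.0131, 0.0143 and 0.0136), all parts of the large ribosomal subunit, and RPSA of the small subunit rose by 1.91 (edgeR adjusted p = 0.0217). The ribosomal protein counts were 15 higher and 5 lower without control 1 (55.6% and 18.5%, against 20.3% and 17% of all genes) and 19 higher and 3 lower without control 2 (70.4% and 11.1%, against 30.5% and 27.6%). Of the 94 tested other genes 14 rose (14.9%) and 16 fell (17%), against 11.2% and 11.4% of all genes. Their median log2 fold change was -0.01, and was -0.04 without control 1 and 0.03 without control 2. Reads on ribosomal protein genes made up 5.38% and 8.44% of the control libraries and 9.33% to 9.7% of the knockdown libraries.

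**Figure D4:**
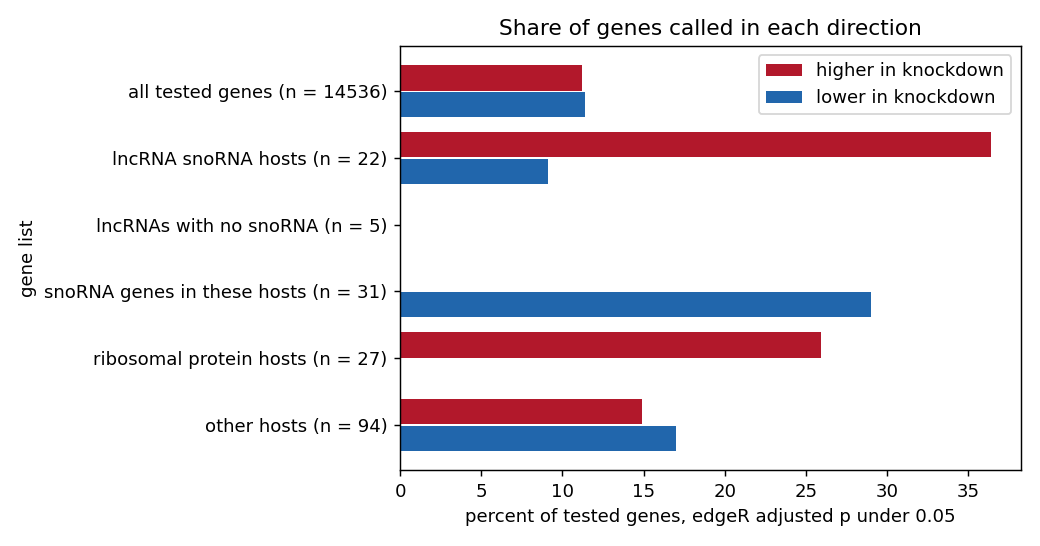
Percent of tested genes called higher or lower in the knockdown (edgeR adjusted p under 0.05) for all genes, the host lncRNAs, the lncRNAs without a snoRNA, the snoRNA genes, and other hosts. The host lncRNAs have 36.4% higher and 9.09% lower, and the snoRNA genes inside them 0% higher and 29% lower.

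Transcripts of the proteins that act with these RNAs moved in both directions, and no protein was measured. Of 17 tested genes for snoRNP core and assembly proteins, 3 rose and 3 fell, which is 35.3% against 22.6% of all tested genes. The median log2 fold change was -0.01. FBL, the methyltransferase of C/D box particles, fell by 1.41 (edgeR adjusted p = 0.0166), and DKC1, the pseudouridine synthase of H/ACA particles, fell by 1.41 (edgeR adjusted p = 0.0249). NOP10, a small H/ACA core protein, rose by 3.35 and NAF1, an H/ACA assembly factor, by 1.73 (edgeR adjusted p = 0.0207 and 0.0181). The control libraries moved 2 of these values: without control 1 and control 2 DKC1 gave -0.94 and -1.77, and NOP10 gave 2.67 and 5.15. Transcripts for members of the same H/ACA particle thus moved in opposite directions. The median of the list was -0.03 without control 1 and -0.15 without control 2.

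Among 19 nonsense-mediated decay factors 5 rose and 3 fell, which is 42.1% against 22.6% of all tested genes. EIF4A3 and RNPS1, which belong to the exon junction complex and its partners, rose by 2.97 and 2.67 (both edgeR adjusted p = 0.0124), and SMG8 rose by 1.71 (edgeR adjusted p = 0.0181). The kinase gene SMG1 fell by 0.96 on the log2 scale (edgeR adjusted p = 0.0206). The median over the list was 0.01, and it was -0.04 without control 1 and -0.03 without control 2.

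Of 15 genes for paraspeckle proteins 1 rose and 3 fell, with NONO, a core protein of these bodies that binds NEAT1, lower at -1.13 (log2, edgeR adjusted p = 0.0374), and NUDT21 up by 1.55 (edgeR adjusted p = 0.0147). Of 15 nuclear speckle genes 3 rose and 2 fell. The splicing factors SRSF1 (1.73, edgeR adjusted p = 0.0140), SRSF7 (1.99, 0.0169) and SRSF2 (2.00, 0.0209) rose, and ACIN1 fell (-1.56, 0.0175). Of 14 regulators of TOP transcripts 1 rose and 1 fell: LARP4B by 1.52 and RPTOR, a subunit of mTOR complex 1, by -1.25 (edgeR adjusted p = 0.0154 and 0.0314). Of 16 tested partners and imprinted neighbours of these lncRNAs 3 rose and 1 fell. EED rose by 1.62 and ELAVL1, which encodes HuR, by 1.57 (edgeR adjusted p = 0.0141 and 0.0167). IGF2BP2 fell by 1.26 (edgeR adjusted p = 0.0320). In these 4 lists 26.7%, 33.3%, 14.3% and 25% of the tested genes were called, against 22.6% of all tested genes. The median log2 fold changes of these 4 lists were -0.03, 0.14, -0.02 and 0.05. NONO was at -0.61 and -1.52, and RPTOR at -0.79 and -1.62, without control 1 and control 2. Without control 1 the medians of the 4 lists were -0.10, 0.01, 0.23 and 0.01. Without control 2 they were -0.15, 0.08, -0.13 and -0.04.

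In the authors' deposited table of fold changes, 10 of the 31 genes had an adjusted p under 0.05, 8 with a positive and 2 with a negative fold change, and all 10 were the genes called here. The direction is not stated in that table. It was read as knockdown over control because its values correlated at 0.9994 across tested genes with those computed here, from the same libraries.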

How the data were processed

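Read counts per gene were deposited by the authors for 5 libraries, as whole numbers. Per the file headers they were made with featureCounts 1.6.2 over exons, with reads that overlap several genes assigned to each of them and no strand option, so overlapping genes share reads. The submitters' processing notes name STAR 2.7, featureCounts 1.6, DESeq2 1.22 and hg38. The authors' deposited table holds log2 fold changes, their standard errors and test statistics as scores, p-values, and a mean signal per gene. Members and gene lists were chosen with earlier results of these data known.

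Groups follow the labels. Counts were fitted over all genes with edgeR 4.0.16 in R 4.3.3 (quasi-likelihood F test, TMM scaling, filterByExpr with a minimum count of 10, Benjamini-Hochberg over all tested genes, threshold 0.05, two-sided), and the procedure was tested on simulated data. CPM are TMM-scaled, and SEs are those of the log2 fold change. Exact permutation tests of 2 against 3 libraries cannot go below 0.1. Every member is named, with up to 4 genes per context list by smallest p and up to 4 snoRNA genes per host by highest mean CPM. Alternatives were DESeq2 1.42.0, limma-voom (limma 3.58.1), RLE or library-size scaling, no filter, a filter of 5 CPM in 2 libraries, TERT and genes under 300 bases removed, a replicate block, and each library left out. Intervals and floors cover counting error only. RefSeq and GENCODE 29 supplied sequences. Ribosomal protein genes are RPSA, RPLP0 to RPLP2 and symbols of RPL or RPS with a number, without pseudogenes and readthrough genes.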

Additional observations from a re-analysis of the deposited data

How the results depend on the processing

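The same 10 members passed in DESeq2 (4459 genes called in all), limma-voom, RLE scaling, and with no filter or the stricter filter. Scaling by library totals left 7 members called, and removing TERT and the short genes left 8, SNHG25 and SNHG9 being removed themselves. Leaving out a library gave from 0 to 24 members called, from 0 to 8811 genes called over all genes, and a snoRNA-to-host ratio difference from -3.35 to -0.28. That difference was -2.59 as a median over hosts, -2.00 with unambiguous snoRNA genes alone, and, in 2 settings chosen after seeing the data, -1.12 without SNHG5 and -2.54 without SNHG25, all with an exact permutation p of 0.1. The snoRNA genes that fell numbered 9 in edgeR, 15 in DESeq2 and 4 in limma-voom.

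The deviations of same-numbered libraries from their group means correlated at -0.05 and -0.08. With 2 controls, whose deviations mirror each other, these values cannot decide whether the replicate numbers pair the samples. With the replicate block 1 member, SNHG8, and 210 of all genes (1.44%) passed.

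Genes without a call changed sign as follows. NEAT1 was -0.014 with RLE scaling and in DESeq2. With library totals SNHG10 was 0.084, SNHG11 0.054 and SNHG5 0.14. SNHG11 was 0.36 with the block and 0.086 in limma-voom. With a library left out the log2 fold change ran from -0.74 to 1.40 for SNHG11, from -0.51 to 1.80 for SNHG16, from -0.60 to 1.55 for OIP5-AS1, from -0.62 to 0.62 for SNHG5, from -0.14 to 0.58 for SNHG12, from -0.028 to 1.32 for SNHG4, from -0.19 to 0.26 for NEAT1 and from -1.11 to 0.011 for MEG3. The causes were not tested. Depth limits SNHG21, SNHG4 and the 4 untested genes.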

Other observations

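The lncRNAs usually called NORAD and CYTOR are listed under their older symbols LINC00657 and LINC00152, and were looked up after the values of the other genes had been seen. LINC00657, a cytoplasmic lncRNA that binds PUMILIO proteins, read 129 and 126 CPM in the controls and 245, 250 and 285 CPM in the knockdown. It rose by 1.03 on the log2 scale (SE 0.19, edgeR adjusted p = 0.0209), with 1.04 without control 1 and 1.01 without control 2. LINC00152 read 131 and 220 CPM against 175, 149 and 143 CPM and did not pass (log2 fold change -0.17, edgeR adjusted p = 0.650). Its near-identical copy MIR4435-2HG fell by 0.93 (edgeR adjusted p = 0.0277), and how reads were split between the copies is uncertain.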
